A study of Mus musculus with 25 samples.

Results

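The comparison described here sets hepatocytes after 4 weeks on a diet meant to bring about non-alcoholic steatohepatitis (NASH) against hepatocytes after 3 weeks of the same diet. Its members are the 3 libraries labelled week 4 and the 4 libraries labelled week 3, 7 of the 25 libraries of the series, and each library was placed by its label. The step between these weeks was itself picked with results of these data known, as the one at which the number of genes called against the normal diet grows, so that growth is given as a description only. The series follows C57BL/6 mice on a normal diet (5 libraries) or on the NASH-inducing diet for 1 week (4 libraries), 2 weeks (3), 3 weeks (4), 4 weeks (3), 5 weeks (3) or 6 weeks (3), and asks how expression in hepatocytes moves with the time on diet. Cells came from livers perfused with collagenase, were enriched by slow centrifugation and were then sorted by flow cytometry. Polyadenylated RNA was sequenced from the 3' end of each transcript. The mice of both weeks carry no stated genetic change, and both weeks share the diet. Sex, age, diet composition and sorting gate were not given in the sources used here. No label ties a numbered library to its own mouse; the p-values therefore measure only how far these libraries differ, which may be technical.

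Hepatocytes take up, burn, store and export fat, make most plasma proteins, including complement and clotting factors, and clear drugs and steroids. Many of their secreted proteins and steroid enzymes are made at a male level that depends on pulses of growth hormone acting through the growth hormone receptor and the transcription factor STAT5B. In steatohepatitis fat accumulates in hepatocytes, the resident and recruited macrophages become active, and stellate cells lay down matrix. RNA of these other cells can enter a hepatocyte preparation through cells or fragments that stay with the hepatocytes. In bulk libraries like these, fewer cells of a type and less RNA per cell cannot be told apart.

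The hepatocyte label was borne out by the markers: the 15 hepatocyte markers summed to between 110541 and 129828 CPM (counts relative to the composition-adjusted size of the library) at week 3 and between 121345 and 136502 at week 4. Depth differed between the weeks without overlap, at 5715248 to 8139997 counts per library at week 3 and 8465986 to 10015751 at week 4. Library 3 of week 4 stood apart from libraries 1 and 2 in its share of mitochondrially encoded counts, 27.1% against 21.3% and 21.7%, where week 3 spanned 22.9% to 23.2%. It also held fewer Kupffer and sinusoidal endothelial transcripts, but its stellate list was not below that of library 2 (2.66 against 2.60 log2 CPM). A score averaging the Kupffer, sinusoidal endothelial and stellate marker lists was 5.10, 4.72 and 4.14 log2 CPM in the libraries of week 4. In those of week 3 the score was 3.66, 4.40, 4.05 and 3.92. Library 1 of week 3 stood apart from the other three of its group in acute phase transcripts, with Saa1 at 2151 CPM against 125 to 358. Transcripts of pancreatic acinar cells, which hepatocytes do not make, were seen in libraries 1 and 2 of week 4: Prss2, a trypsinogen, was at 3.38, 18.6 and 0.357 CPM in the libraries of week 4 and at 0, 0.527, 0.508 and 0 CPM in those of week 3. Many of the list counts below are also given without 1 of these libraries. Where no such count is given, the value is of the main fit only.

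No gene passed the test between week 4 and week 3. Of 11869 genes tested, 0 had an adjusted p under 0.05 (edgeR's quasi-likelihood test with Benjamini-Hochberg adjustment, 0% of the genes). The smallest adjusted p was 0.0972, shared by Cd36, Mmp12 and 1810019D21Rik. At an unadjusted p under 0.05 there were 2103 genes (17.7%), 1040 of them higher at week 4 (8.76%) and 1063 lower (8.96%). For 1686 genes (14.2%) the libraries of both weeks did not overlap, 853 with week 4 above (7.19%) and 833 with week 4 below (7.02%). The same data gave 99 calls with DESeq2 (37 higher and 62 lower, 0.834% of the genes), 4 calls when only the libraries of both weeks entered the edgeR model (Cd36, 1810019D21Rik, H2-T23 and Pfn1), and 80 calls without library 3 of week 4 (41 higher and 39 lower, 0.674%). Counts at an unadjusted p under 0.05 were smaller without library 1 of week 3 (1363) and without library 1 or 2 of week 4 (1132 and 1299). They were 1852, 1864 and 2174 without library 2, 3 or 4 of week 3, and 2749 without library 3 of week 4. With the marker score as a term in the model the count was 1131. Counts of a list in such fits, given below, are to be read beside these counts over all genes. Limma's voom called 0 genes, with 2228 at an unadjusted p under 0.05.

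The steps on either side showed different numbers of genes. From week 2 to week 3, 0 genes were called and 405 had an unadjusted p under 0.05 (3.41%); from week 4 to week 5, 0 genes were called and 2095 had an unadjusted p under 0.05 (17.7%). These steps share the libraries of week 3 or week 4 with the step described, and the difference between the counts was not tested. Against the normal diet, 101 genes were called at week 3 (0.851%; 29 higher, 0.244%, and 72 lower, 0.607%) and 983 at week 4 (8.28%; 644 higher, 5.43%, and 339 lower, 2.86%). Both of these use the same 5 libraries of normal diet. The gap between 101 and 983 is thus a difference in the number of calls, while the direct test of week 4 against week 3 gave 0. Without library 1 of week 4 the count at week 4 was 156, without its library 2 it was 289 and without its library 3 it was 1322. It was 421, 630 and 541 without library 1, 2 or 5 of normal diet. With library size alone as the scale, the splits were 76 higher and 55 lower at week 3 and 1033 higher and 150 lower at week 4.

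Since no gene was called, the 6 genes with the smallest unadjusted p in each direction are described, among genes that reached a mean of 10 CPM in either week. The libraries of both weeks did not overlap in any of these 12, which was not a condition of the choice. All 12 miss the threshold. With DESeq2 12 of the 12 were called, and without library 3 of week 4 10 of the 12 were. Log2 differences are given with their standard error from the fit, and p-values of these genes are edgeR's, adjusted over all genes tested.

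Among the genes higher at week 4, Cd36 encodes the fatty acid translocase that carries long-chain fatty acids into cells. Its levels were 20.8, 25.7, 22.9 and 19.9 CPM at week 3 and 44.9, 65.1 and 47.3 CPM at week 4. Every week 4 library lay above every week 3 library, at a log2 difference of 1.24 ± 0.23 and an adjusted p of 0.0972. Apoa4 encodes an apolipoprotein that is secreted on triglyceride-rich particles, and its levels were 24.8, 29.9, 69.2 and 51.4 CPM at week 3 and 180.1, 106 and 169 CPM at week 4. The lowest library of week 4, library 2, stood above the highest of week 3, and the log2 difference was 1.79 ± 0.42 (adjusted p 0.14). For Cst3, the secreted protease inhibitor cystatin C, the levels were 129, 137, 135 and 143 CPM at week 3 and 233, 221 and 182 CPM at week 4. The week 3 libraries lay close together and all of week 4 lay above them, at 0.64 ± 0.14 (adjusted p 0.116).

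The remaining 3 genes were low in counts. Adam9, a membrane metalloprotease, was at 4.01, 4.04, 3.39 and 5.22 CPM at week 3 and 10.5, 15.1 and 9.53 CPM at week 4. Its log2 difference was 1.48 ± 0.32 (adjusted p 0.116), and its mean at week 3, 4.16 CPM, was also below the 8.58 CPM of the normal diet. Cbfa2t3, a transcriptional corepressor, was at 4.01, 3.52, 5.59 and 3.98 CPM at week 3 and 12.1, 10.3 and 8.1 CPM at week 4 and differed by 1.25 ± 0.29 (adjusted p 0.128). Hnrnph1, an RNA-binding protein that regulates splicing, was at 7.85, 9.14, 6.95 and 9.07 CPM at week 3 and 19.7, 12.6 and 11 CPM at week 4 and differed by 0.80 ± 0.20 (adjusted p 0.14). Library 3 of week 4 was the lowest of its group in these 3 genes and in Cst3.

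Among the genes lower at week 4, 3 encode liver proteins of the blood. Serpina1e, an alpha-1-antitrypsin of the male mouse liver, was at 15129.6, 8421, 7460.2 and 8525 CPM at week 3 and 5942, 3336 and 3122 CPM at week 4. Library 1 held the highest level of both weeks, and the other libraries of week 3 lay above all of week 4. The log2 difference was -1.26 ± 0.26 (adjusted p 0.116), and -0.98 without that library. C8b, the beta chain of complement component C8, was at 1495, 1072, 727 and 603 CPM at week 3 and 345, 319.8 and 467 CPM at week 4. Week 4 lay below week 3 throughout, at -1.37 ± 0.29 (adjusted p 0.116). C1ra, a protease of the first complement component, was at 256, 269, 224 and 182 CPM at week 3 and 118, 145 and 164 CPM at week 4 and differed by -0.71 ± 0.15 (adjusted p 0.116).

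Nudt7 hydrolyses coenzyme A and its esters in peroxisomes. Its levels were 706, 653, 746 and 714 CPM at week 3 and 464, 341 and 454 CPM at week 4, with the 4 libraries of week 3 close together and a log2 difference of -0.75 ± 0.16 (adjusted p 0.116). Cdh1 encodes E-cadherin, the adhesion protein of epithelial cell contacts, and was at 178, 164, 184 and 171 CPM at week 3 and 105, 109 and 119 CPM at week 4. The spread within each week was small beside the gap between them, which was -0.65 ± 0.13 (adjusted p 0.116). Ablim1, an actin-binding protein, was at 38.1, 31.5, 45.9 and 31.2 CPM at week 3 and 9.92, 14.6 and 22.4 CPM at week 4 and differed by -1.23 ± 0.27 (adjusted p 0.116).

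**Figure D1:**
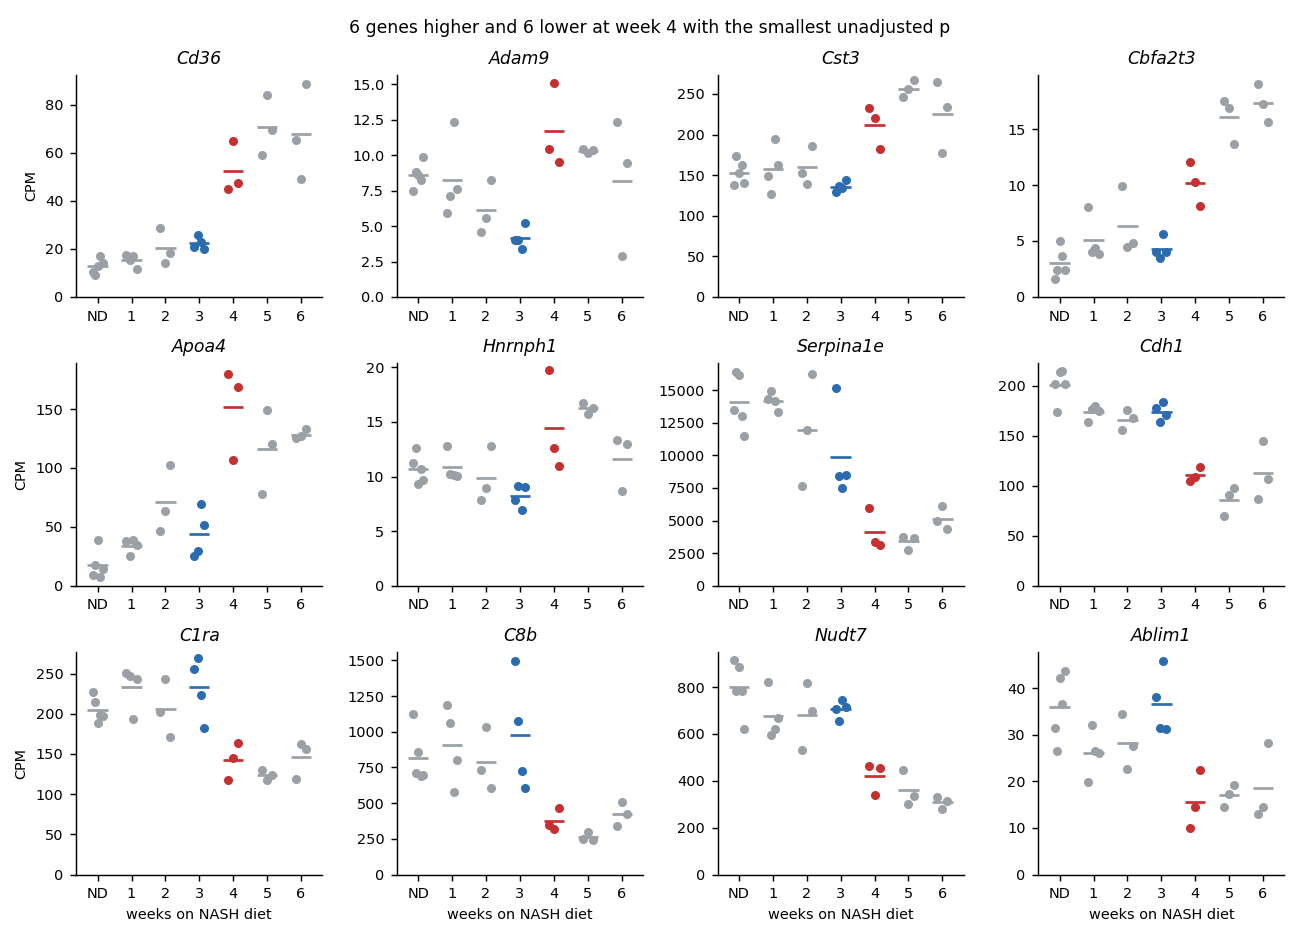
Levels in CPM (linear axis from 0) in every library by group, from normal diet (ND) to week 6, with a bar at each group mean; week 3 is blue, week 4 red and the other groups grey. Week 4 does not overlap week 3 in any of the 12 genes, and Adam9 has its lowest group mean, 4.16 CPM, at week 3.

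Against the normal diet, Cd36, Serpina1e and Adam9 are described here, and the other genes of the 12 are not placed. Cd36 was at 12.8 ± 3.23 CPM (SD, n = 5) under normal diet, 22.3 ± 2.56 (SD, n = 4) at week 3 and 52.4 ± 11 (SD, n = 3) at week 4, and its log2 difference from normal diet was 0.79 ± 0.21 at week 3 (adjusted p 0.0819) and 2.03 ± 0.22 at week 4 (adjusted p 5.70e-06). Serpina1e differed from normal diet by -0.51 ± 0.22 at week 3 (adjusted p 0.315) and -1.77 ± 0.26 at week 4 (adjusted p 1.81e-04). Both pass the test at week 4 and miss it at week 3. Adam9 passed at neither, at -1.02 ± 0.30 (adjusted p 0.109) and 0.45 ± 0.29 (adjusted p 0.355): its week 3 value lay below the normal diet and its week 4 value above it.

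Genes that depend on growth hormone pulses or are biased to males were lower at week 4 as a group. Of the 29 tested, 16 had an unadjusted p under 0.05 and all 16 were lower, where 8.96% of all genes were; 0 passed after adjustment. In 16 of the 29 the week 4 libraries lay wholly below those of week 3 (7.02% of all genes). The median log2 difference was -0.61, against 0.01 over all tested genes. The count was 14 without library 1 of week 3, 15 without library 3 of week 4 and 13 with the marker score of other cells as a term in the model. The genes include secreted carriers, steroid enzymes and complement chains, and they are described in that order.

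Major urinary proteins (Mup) carry pheromones and are made in large amounts by the liver of male mice. Of this family 19 symbols were tested, 14 had an unadjusted p under 0.05 and were lower, and 0 were higher, where 8.96% and 8.76% of all genes were. The median was -1.36, the range -2.75 to 0.08, and adjusted p-values ran from 0.141 to 0.999. Mup11 was at 10284, 3646, 2081 and 4673 CPM at week 3 and 1586, 922 and 1452 CPM at week 4. Library 1 of week 3 was highest and the 3 libraries of week 4 lowest, at a log2 difference of -1.97 ± 0.48. Mup7 was at 84.3, 29.7, 29.3 and 56.4 CPM at week 3 and 16.8, 13.6 and 26.7 CPM at week 4, a difference of -1.40 ± 0.41, whereas Mup3 was at 9892, 8699, 11272 and 10629 CPM at week 3 and 10471, 10101 and 9810.0 CPM at week 4, a difference of 0.00 ± 0.15 with overlapping libraries. The genes are near-identical copies, so reads counted for one may come from another and the values of single members are uncertain. They were picked for display after their values were seen.

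How alike the members are can be read from the 50 bases of their promoters around the TATA element, taken from the RefSeq promoter table of build GRCm38.p6, 5' to 3' on the strand of the gene. The letters TATAA are in capitals and all 4 stretches lie on chromosome 4.
Mup11 (chr4:60662356-60662405, minus strand): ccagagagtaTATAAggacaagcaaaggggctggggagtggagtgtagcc
Mup18 (chr4:61674081-61674130, minus strand): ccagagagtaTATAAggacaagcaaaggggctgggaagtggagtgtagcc
Mup4 (chr4:59960655-59960704, minus strand): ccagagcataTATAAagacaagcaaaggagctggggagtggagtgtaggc
Mup3 (chr4:62087287-62087336, minus strand): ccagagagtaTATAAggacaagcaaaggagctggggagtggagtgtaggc
Mup15, Mup17, Mup19 and Mup2 match Mup11 in 50 of 50 bases, Mup18 in 49, Mup3 in 48 and Mup4 in 45. Mup18 differed between the weeks by -1.64 ± 0.47 and Mup4 by -1.49 ± 0.44, beside 0.00 ± 0.15 for Mup3. Of the 14 Mup symbols with an entry in the table, 13 hold TATAA in the 300 bases from 250 before to 50 after the start, as do 24.9% of 32851 promoters on either strand. A match describes letters only.

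The list also holds enzymes of steroid and lipid metabolism, none of which passed the test. Cyp7b1, an oxysterol 7-alpha-hydroxylase of the alternative route to bile acids, was at 322, 189, 165 and 226 CPM at week 3 and 132, 79 and 92.6 CPM at week 4. Its week 4 libraries all lay below week 3, at -1.16 ± 0.32 (adjusted p 0.16). Elovl3, an elongase of very long-chain fatty acids, was at 494, 171, 280.0 and 358 CPM at week 3 and 96.9, 152 and 119.8 CPM at week 4, a difference of -1.41 ± 0.34 (adjusted p 0.141). Ugt2b38, a glucuronosyltransferase, was at 32.4, 24.1, 17.5 and 24.4 CPM at week 3 and 14.5, 4.83 and 8.58 CPM at week 4 and differed by -1.41 ± 0.53 (adjusted p 0.198). Slco1a1, an uptake transporter of organic anions, overlapped between the weeks at 399, 539, 494 and 494 CPM at week 3 and 366, 325 and 421 CPM at week 4.

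Selenbp2, a selenium-binding protein, had one of the larger differences of the list, -1.78 ± 0.42, and was picked for that; its levels were 1177, 680.1, 415 and 411 CPM at week 3 and 231, 106 and 250.02 CPM at week 4. C6, a terminal complement component, was at 834, 573, 419 and 551 CPM at week 3 and 321, 276 and 304 CPM at week 4, with no overlap and a difference of -0.98 ± 0.22 (adjusted p 0.123). The levels of 4 genes of the pathway itself were less clear. Ghr, the growth hormone receptor, differed by 0.00 ± 0.14, and Stat5b by 0.01 ± 0.16. Socs2, an inhibitor of the receptor that STAT5 induces, was at 76.3, 37.8, 30.7 and 44.4 CPM at week 3 and 12.3, 28.4 and 9.29 CPM at week 4, a difference of -1.49 ± 0.79 without overlap, and Igf1, the growth factor made in response to growth hormone, differed by -0.26 ± 0.14. These 4 were named for their role after the values were seen, and none had an unadjusted p under 0.05.

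**Figure D2:**
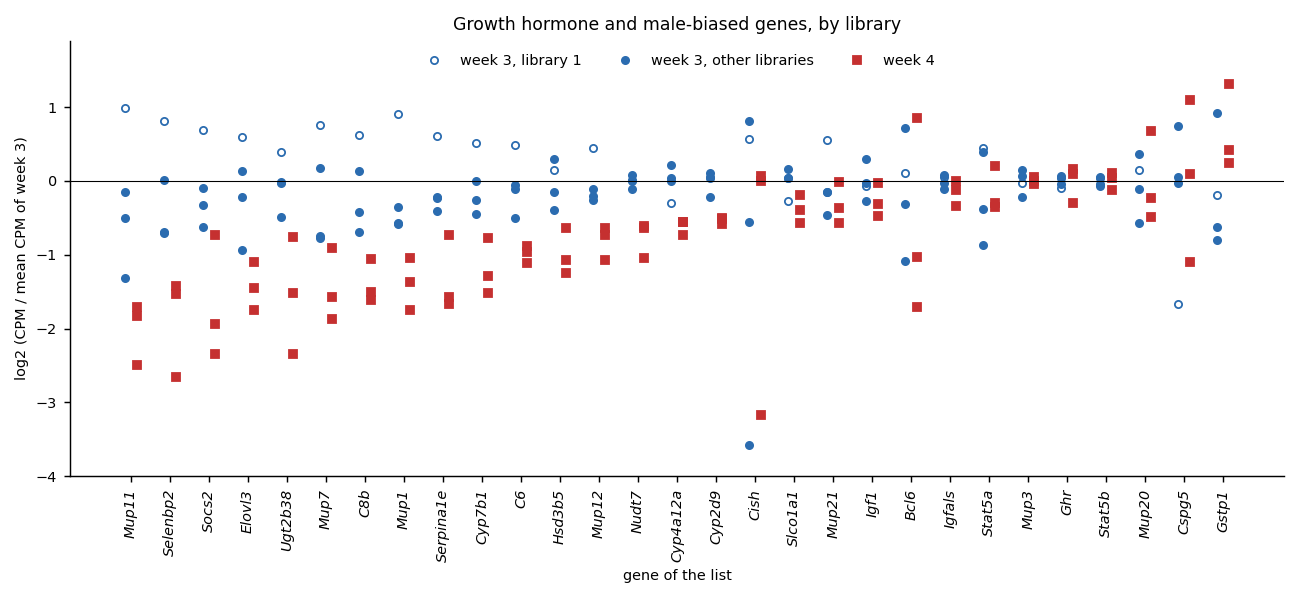
For each of the 29 tested genes of the growth hormone and male-biased list, the log2 ratio of each library's CPM to the mean CPM of week 3; open circles are library 1 of week 3, filled circles the other week 3 libraries and squares the week 4 libraries. In the 16 genes at the left, from Mup11 to Cyp2d9, all week 4 squares lie below all week 3 circles.

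Genes biased to females gave few values: 9 of 20 passed the filter, with a median of 0.67 and a range of -1.82 to 2.71. At an unadjusted p under 0.05, 3 were higher (33.3%) and 0 lower, where 8.76% and 8.96% of all genes were. The highest, Cyp4a14, is also in the list of fatty acid oxidation and is described there. Cyp17a1, a steroid hydroxylase, was at 4.33, 4.39, 8.98 and 9.94 CPM at week 3 and 14.8, 17.3 and 18.6 CPM at week 4, with no overlap and a difference of 1.27 ± 0.56 (adjusted p 0.253). Cux2, a transcription factor that is high in female liver, was at 0, 0.176, 0 and 0.373 CPM at week 3 and 0.872, 0.789 and 0.357 CPM at week 4. Since filtering removed the genes that were low in all groups, the median is not that of the whole list. The count of 3 was 1 without library 1 of week 3 or library 2 of week 4.

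Complement and coagulation factors were lower at week 4 in 13 of 32 genes (40.6%) at an unadjusted p under 0.05, where 8.96% of all genes were. In 0 were they higher, against 8.76% of all genes. In 10 of the 32 the week 4 libraries lay wholly below (7.02% of all genes) and in 2 wholly above (7.19%). The median was -0.21. Without library 1 of week 4 the count was 8, against 573 genes (4.83%) over all genes in that fit. C8a, the alpha chain of the component that C8b completes, was at 943, 683, 591 and 504 CPM at week 3 and 490.5, 392 and 497 CPM at week 4. It too showed no overlap, at -0.57 ± 0.16 (adjusted p 0.16). The members that stood lower span the classical start of the cascade (C1ra), its convertase protein C2 and the membrane attack complex (C6, C8a, C8b, C9), with log2 differences between -1.37 and -0.48. C6 and C8b are also in the male-biased list.

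Acute phase proteins, which the liver makes in response to interleukin-6 and interleukin-1, were lower in 11 of 26 genes (42.3%, against 8.96% of all genes) and higher in 1, with a median of -0.51. This rested on library 1 of week 3. Saa1, serum amyloid A, was at 2151, 358, 148 and 125 CPM at week 3 and 139, 111 and 102 CPM at week 4, and Saa3 at 64.7, 93.2, 29.2 and 25.1 CPM at week 3 and 22.1, 14.9 and 10.5 CPM at week 4. Fgb, the fibrinogen beta chain, was at 11885, 6530.4, 7083 and 7432 CPM at week 3 and 4036, 7449 and 4018 CPM at week 4, where library 1 again stood above the rest. The count of 11 was 5 and 7 without library 1 or 2 of week 4. Without library 1 of week 3, 3 of the 26 were lower and 2 higher, where 5.7% and 5.79% of all genes were in that fit, and the median was -0.05. The median of the male-biased genes in the same fit was -0.61. Itih3, an inhibitor heavy chain that binds hyaluronan, was at 872, 511, 499 and 358 CPM at week 3 and 285, 309 and 441 CPM at week 4.

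Endoplasmic reticulum folding genes showed the same dependence on that library. With it, 5 of 24 were lower and 1 higher (median -0.22), where 8.96% and 8.76% of all genes were. Without it, 1 was lower and 2 were higher, and 2 were lower without library 2 of week 4 (medians 0.04 and -0.23). Pdia4, a disulfide isomerase, was at 380.4, 175, 181 and 204 CPM at week 3 and 174, 138 and 159.7 CPM at week 4. Library 1 of week 3 lay far above the other libraries of its week. Dnajb9, a co-chaperone induced by unfolded proteins, went the other way, at 11.5, 8.96, 10.7 and 16.9 CPM at week 3 and 30.3, 14.7 and 13.9 CPM at week 4.

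Genes of fatty acid oxidation and ketogenesis were higher at week 4 in 8 of 24 at an unadjusted p under 0.05 and lower in 1, where 8.76% and 8.96% of all genes were. The median was 0.18. Cyp4a14, a fatty acid omega-hydroxylase and a target of the receptor PPAR-alpha, was at 18.7, 28.7, 26.6 and 32.6 CPM at week 3 and 90.7, 313 and 121 CPM at week 4. Library 1 of week 4 was closest to week 3, and the log2 difference was 2.71 ± 0.81 (adjusted p 0.16). Acadm, the medium-chain acyl-CoA dehydrogenase of mitochondrial beta-oxidation, was at 211, 215, 189 and 211 CPM at week 3 and 240.0, 271 and 282 CPM at week 4, a difference of 0.35 ± 0.14. Ehhadh, the peroxisomal bifunctional enzyme, was at 15.1, 9.14, 10.5 and 15.2 CPM at week 3 and 12, 28.2 and 22 CPM at week 4, and Acaa1b, the peroxisomal thiolase, at 7.37, 5.1, 6.44 and 15.9 CPM at week 3 and 21, 21 and 13.9 CPM at week 4; both overlap between the weeks. The count of 8 was 3 without library 1 of week 3, 4 without its library 2 or 3, 2 without library 2 of week 4 and 3 without its library 3.

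Genes of lipid uptake and storage split, and 1 of them, Fabp4, is also in the list of central vein endothelium. Besides Cd36, Fabp4, a fatty acid binding protein of endothelium, macrophages and fat cells, was at 6.41, 7.21, 8.3 and 9.32 CPM at week 3 and 29.5, 38.9 and 10.5 CPM at week 4, a difference of 1.75 ± 0.51 (adjusted p 0.16). Pparg, the nuclear receptor that drives fat storage, was at 0.32, 3.69, 1.69 and 3.6 CPM at week 3 and 5.23, 8.67 and 4.53 CPM at week 4, with no overlap, at 1.38 ± 0.54 (adjusted p 0.208). Fabp5, another fatty acid binding protein, was lower at 38.3, 26.5, 18.8 and 35.7 CPM at week 3 and 8.72, 11.2 and 6.91 CPM at week 4, a difference of -1.73 ± 0.40 (adjusted p 0.131). Plin2, the coat protein of lipid droplets, differed by -0.36 ± 0.20. Over the 24 tested genes 3 were higher (12.5%) and 1 lower (4.17%), beside 8.76% and 8.96% of all genes, and the median was 0.03.

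Apolipoproteins other than Apoa4 were mixed. Apoa1, the main protein of high-density lipoprotein, was at 12839, 14105, 11155 and 11201 CPM at week 3 and 9273, 8180.4 and 10367 CPM at week 4, below week 3 in all libraries, at -0.41 ± 0.14 (adjusted p 0.17). Apoc2, the activator of lipoprotein lipase, was at 459.9, 503, 685 and 526 CPM at week 3 and 707, 759.8 and 731 CPM at week 4, above week 3 in all libraries, at 0.43 ± 0.16 (adjusted p 0.19). Mttp, which loads triglyceride on apolipoprotein B, was at 148, 137, 139.8 and 128 CPM at week 3 and 79.9, 111 and 126 CPM at week 4. Of 22 lipoprotein genes 2 were higher (9.09%) and 4 lower (18.2%) at an unadjusted p under 0.05, where 8.76% and 8.96% of all genes were. Without library 2 of week 4, 1 was lower.

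Cholesterol synthesis was already low at week 3. Of 25 genes, 18 were called lower than normal diet at week 3 (0.607% of all genes) and 23 at week 4 (2.86%), with medians of -1.63 and -1.83; both comparisons use the same controls. Between the weeks 0 genes were called and the median was -0.27. At an unadjusted p under 0.05, 5 were lower (20%), where 8.96% of all genes were. Mvd, the decarboxylase of the mevalonate route, was at 4.01, 3.34, 10.3 and 5.84 CPM at week 3 and 2.94, 3.25 and 1.91 CPM at week 4, a difference of -1.11 ± 0.35 (adjusted p 0.162). Srebf2, the transcription factor that turns on the route, was at 12.3, 14.4, 14.6 and 13.3 CPM at week 3 and 5.01, 10.5 and 11.4 CPM at week 4. The count of 5 ranged from 1 (without library 3 or 4 of week 3, or library 1 of week 4) to 9 (without library 1 of week 3).

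Bile acid genes held 4 lower (17.4%) and 0 higher of 23, where 8.96% and 8.76% of all genes were. Cyp2c70, the enzyme that makes muricholic acids in mice, was at 942, 772, 664 and 701 CPM at week 3 and 435, 419 and 487 CPM at week 4, wholly below week 3, at -0.78 ± 0.18 (adjusted p 0.128). Abcb11, the bile salt export pump, was at 325, 276, 293 and 305 CPM at week 3 and 177, 178 and 275 CPM at week 4, also wholly below, at -0.52 ± 0.16 (adjusted p 0.16). Among pericentral genes, which hepatocytes near the central vein express, Csad, an enzyme of taurine synthesis, was at 213, 227, 110.0 and 249 CPM at week 3 and 71.9, 68.1 and 71.6 CPM at week 4. Its libraries did not overlap, at -1.50 ± 0.32 (adjusted p 0.116); 2 of the 24 tested pericentral genes were higher and 2 lower, 8.33% each and near the share of all genes.

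Periportal genes, marking hepatocytes near the portal vein, were higher in 6 of 25 and lower in 0, where 8.76% and 8.96% of all genes were. Pck1, which converts oxaloacetate to phosphoenolpyruvate in glucose synthesis, was at 1194, 780.1, 743 and 1072 CPM at week 3 and 1495, 2066 and 1264 CPM at week 4, and Tat, a tyrosine aminotransferase, at 99.2, 87.7, 165 and 199 CPM at week 3 and 291, 466 and 243 CPM at week 4; neither overlaps. Gls2, the liver glutaminase, was at 65.1, 77, 122 and 118 CPM at week 3 and 149, 173 and 134 CPM at week 4. Without library 2 of week 4 the count was 0, and without library 1 or 2 of week 3 it was 1 or 3. Of 22 genes of methionine and one-carbon metabolism, 0 had an unadjusted p under 0.05.

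Injury genes and targets of the YAP coactivator were higher in 12 of 26 and lower in 2 at an unadjusted p under 0.05, where 8.76% and 8.96% of all genes were, with a median of 0.69. Anxa5, which binds phosphatidylserine on membranes, was at 46.1, 54.5, 56.8 and 56.2 CPM at week 3 and 69.7, 83.1 and 67.4 CPM at week 4, wholly above week 3, at 0.46 ± 0.14 (adjusted p 0.16). Ccn2, a matrix-associated YAP target, was at 2.24, 2.46, 1.53 and 0.746 CPM at week 3 and 3.71, 15.9 and 2.38 CPM at week 4, with overlap, at 2.11 ± 0.64 (adjusted p 0.16). Lgals1, a galectin, was at 10.6, 12.3, 10.2 and 14.4 CPM at week 3 and 24.1, 24.9 and 13.9 CPM at week 4. Sox9, a transcription factor of bile duct cells and of injured hepatocytes, was lower at 41.3, 24.3, 61.7 and 48.3 CPM at week 3 and 22.3, 15.6 and 24.7 CPM at week 4, a difference of -1.08 ± 0.30 (adjusted p 0.16). The count of 12 was 6 without library 1 of week 4, 3 without its library 2 and 2 with the marker score as a term. Over all genes, in either direction, 1132, 1299 and 1131 had an unadjusted p under 0.05 in those fits, beside 2103 in the main fit. Many of these genes are also made by macrophages, endothelium and stellate cells.

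**Figure D3:**
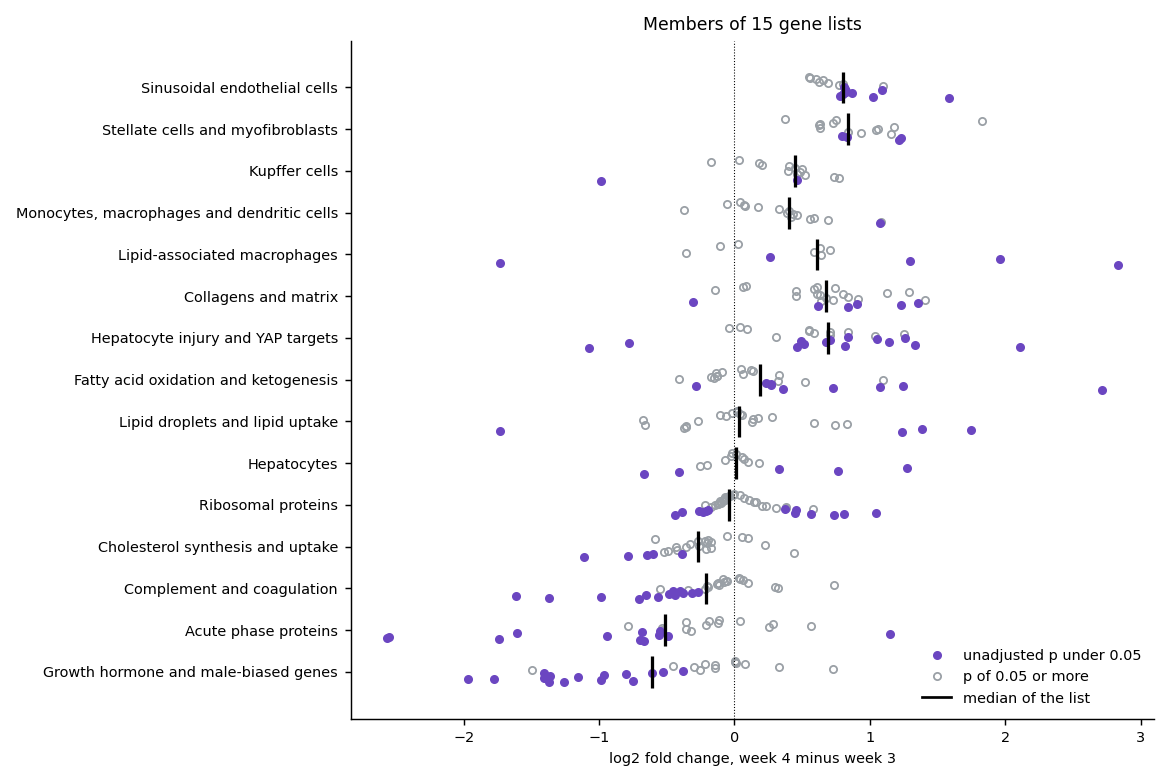
Log2 difference between week 4 and week 3 for each tested member of 15 lists (points, filled where the unadjusted p was under 0.05) with the median of the list as a bar. Medians lie between -0.61 for the growth hormone and male-biased genes and 0.84 for stellate cells.

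Marker lists of other liver cells took different patterns over the libraries. Those of sinusoidal and central vein endothelium were above all of week 3 in libraries 1 and 2 of week 4. In the central vein list library 3 of week 4, at 2.60 log2 CPM, also lay above week 3, which spanned 2.35 to 2.51. The sinusoidal endothelial list averaged, in log2 CPM, 4.50, 4.47, 4.42 and 4.80 at week 3 and 5.65, 5.68 and 4.56 at week 4. All 19 of its markers had a positive difference, and the median was 0.80. Of them, 10 (52.6%) were higher at an unadjusted p under 0.05, where 8.76% of all genes were. Its summed level was 577 to 801 CPM at week 3 and 628 to 1467 at week 4, and 0 of the 19 were at 0 counts in either week. Without library 3 of week 4 the count was 16 (11.1% of all genes were higher in that fit), without its library 1 it was 2, without its library 2 it was 4, and without library 1, 2 or 3 of week 3 it was 6, 3 or 4.

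Fcgr2b, an antibody receptor that clears immune complexes in the sinusoids, was at 8.65, 7.73, 7.29 and 15.5 CPM at week 3 and 40.0, 34.6 and 14.7 CPM at week 4. Library 3 of week 4 lay below library 4 of week 3, and the difference was 1.58 ± 0.43 (adjusted p 0.16). Flt4, a receptor for vascular endothelial growth factor C, was the 1 marker of the list without overlap, at 13.1, 11.6, 10.2 and 12.9 CPM at week 3 and 27.6, 29 and 16.3 CPM at week 4. Aqp1, a water channel, was at 76, 88.4, 87.8 and 143 CPM at week 3 and 255, 292 and 85.3 CPM at week 4. Signals of the central vein endothelium were higher in 5 of 9 genes (median 0.75): Wnt2, a ligand that sets pericentral identity, was at 3.37, 3.16, 5.42 and 4.72 CPM at week 3 and 10.7, 8.97 and 4.76 CPM at week 4, and Maf, a transcription factor of endothelium and macrophages, at 168, 204, 146 and 199 CPM at week 3 and 364, 415 and 209.6 CPM at week 4, without overlap. The count of 5 (55.6%, where 8.76% of all genes were higher) was 3 without library 1 of week 4. Fabp4, described among the genes of lipid uptake, is 1 of the 5.

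For stellate cells the list averaged 1.10, 2.83, 2.47 and 1.52 at week 3 and 3.45, 2.60 and 2.66 at week 4. The 17 markers all had a positive difference, and the median was 0.84. Of them, 4 (23.5%) were higher at an unadjusted p under 0.05, where 8.76% of all genes were. Here the spread lay in week 3, whose libraries 1 and 4 were low, and the count was 1 without either of them, 11 without library 2, and 0 and 7 without library 1 or 2 of week 4. Ecm1, a matrix protein that holds TGF-beta inactive, was at 13.6, 57.1, 59.3 and 24.5 CPM at week 3 and 144, 58.4 and 65.9 CPM at week 4, and Colec11, a collectin, at 6.57, 19.2, 15.6 and 10.2 CPM at week 3 and 52.9, 18.3 and 18.9 CPM at week 4. Lrat, which stores retinol as ester, was at 5.61, 16.9, 15.3 and 6.84 CPM at week 3 and 28, 13.6 and 15.7 CPM at week 4. The collagens and matrix list was higher in 5 of 25 genes (20%, against 8.76% of all genes) and lower in 1 (median 0.67), with Col4a1, a chain of basement membrane collagen, at 23.2, 25, 22.2 and 21.3 CPM at week 3 and 50.9, 46.6 and 25.4 CPM at week 4. That count of 5 was 0 without library 1 of week 4 and 11 without its library 3, and 2, 11 and 3 without library 1, 2 or 4 of week 3.

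Macrophages were covered by 3 lists. Kupffer cell markers averaged 5.39, 5.90, 5.26 and 5.43 at week 3 and 6.19, 5.86 and 5.21 at week 4, with overlapping weeks, and 1 of 15 was higher and 1 lower at an unadjusted p under 0.05 (6.67% each, below the shares of all genes). The lower one, C6, is made by hepatocytes too. The monocyte, macrophage and dendritic cell list averaged 2.77, 3.50, 2.76 and 2.69 at week 3 and 3.54, 3.57 and 2.66 at week 4, with 1 of 17 higher (5.88%). With the marker score as a term the medians of both lists turned from 0.45 and 0.40 to -0.48 and -0.52. That score is built in part from the Kupffer list.

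Genes of lipid-associated macrophages, the cells that gather at fat-laden or dying hepatocytes, differed among themselves: 4 of 12 were higher (33.3%) and 1, Fabp5, lower (8.33%). Of all genes 8.76% were higher and 8.96% lower. Mmp12, the macrophage elastase, was at 0.961, 1.93, 1.02 and 0.746 CPM at week 3 and 5.99, 14 and 4.29 CPM at week 4. It was low in every library of week 3, and the difference was 2.83 ± 0.53 (adjusted p 0.0972). Gpnmb, a lysosomal glycoprotein of these cells, was at 0.32, 1.93, 0.847 and 0 CPM at week 3 and 1.63, 4.83 and 1.91 CPM at week 4, a difference of 1.96 ± 0.80 (adjusted p 0.224). Cd63, a tetraspanin, was at 3.2, 6.5, 2.54 and 3.73 CPM at week 3 and 9.92, 10.6 and 8.7 CPM at week 4, wholly above week 3. Spp1, osteopontin, was at 8.01, 5.27, 4.24 and 3.48 CPM at week 3 and 6.87, 6.11 and 10.6 CPM at week 4, with overlap. The count of 4 was 2 without library 4 of week 3 or library 2 of week 4.

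Among chemokines and NF-kB targets 5 of 23 were higher and 0 lower, with overlap in all 5. Ccl2, which draws monocytes, was at 0.16, 1.23, 1.19 and 0.994 CPM at week 3 and 4.03, 4.34 and 1.19 CPM at week 4, a difference of 1.83 ± 0.60 (adjusted p 0.167), and Il1b, interleukin-1 beta, at 5.77, 10.9, 6.61 and 5.47 CPM at week 3 and 31.8, 15.3 and 6.55 CPM at week 4. In the TGF-beta family Tgfbr2, the type II receptor, was at 5.93, 8.96, 8.14 and 8.57 CPM at week 3 and 18.6, 19 and 13.1 CPM at week 4, wholly above week 3, at 1.10 ± 0.29 (adjusted p 0.16); 5 of 21 were higher and 0 lower. Beside 8.76% of all genes, 21.7% of the chemokine list and 23.8% of the TGF-beta list were higher. Ccn2, described among the YAP targets, is also in the TGF-beta list. Without library 1 of week 3 the counts of both lists were 2 and 3, where 5.79% of all genes were higher. That of the chemokines was 3 and 2 without library 3 or 4 of week 3, and 1 and 8 without library 1 or 3 of week 4. The part of the marker transcripts in the genes above was not tested beyond the fits with and without the marker score.

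**Figure D4:**
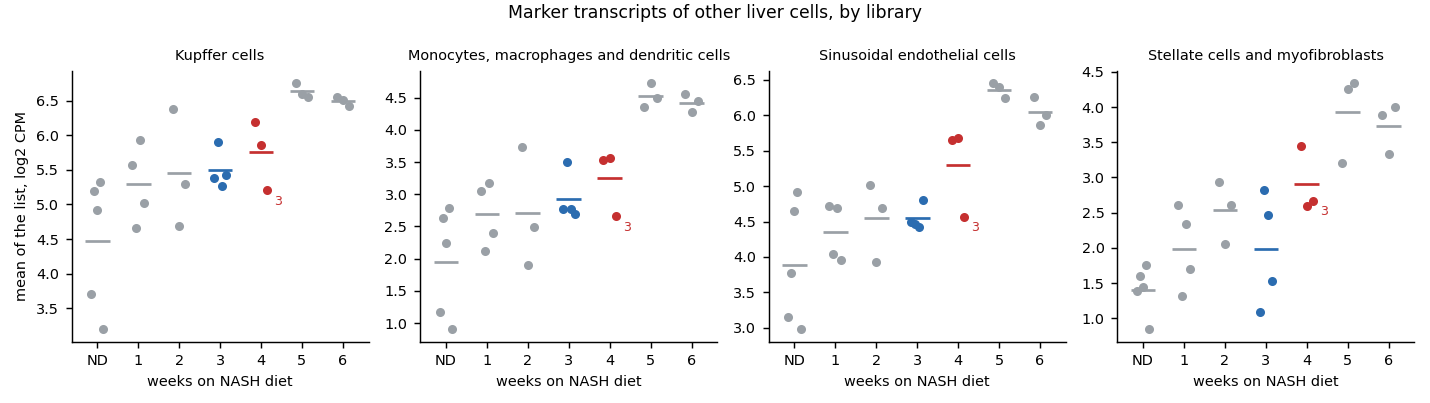
Mean log2 CPM of 4 marker lists in every library by group, with a bar at each group mean; week 3 is blue, week 4 red and the digit marks library 3 of week 4. For sinusoidal endothelial cells that library, at 4.56, lies among the week 3 libraries.

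Other lists are given by their counts, beside 8.76% of all genes higher and 8.96% lower. Respiratory chain subunits were higher in 7 of 37 and lower in 0 (median 0.05), with Ndufa4, a subunit tied to cytochrome oxidase, at 116, 126, 152 and 191 CPM at week 3 and 220.4, 278 and 248 CPM at week 4. Cox5a, a cytochrome oxidase subunit, was at 1.12, 1.23, 3.73 and 9.44 CPM at week 3 and 21.8, 19.8 and 14.9 CPM at week 4. The count of 7 was 3 without library 1 of week 3, 2 without its library 2, and 3 without library 1 or 2 of week 4. Of the 43 ribosomal protein genes 7 were higher and 6 lower, or 3 and 2 without library 1 of week 4 11 and 3 without its library 3, 5 and 3 without library 2 of week 3, and 11 and 4 without library 4 of week 3 (median -0.04, and 0.03 with library size alone as the scale). Rps23, a protein of the small subunit, was at 41.5, 35.9, 46.3 and 60.1 CPM at week 3 and 103, 65.7 and 61.2 CPM at week 4, with no overlap. Transcription factors of the hepatocyte were lower in 3 of 26 (0 without library 2 of week 3 or library 1 of week 4, 5 without library 4 of week 3, 8 without library 3 of week 4), with Foxa3, a pioneer factor, at 109, 144, 91.4 and 73.6 CPM at week 3 and 61.6, 48.2 and 72.2 CPM at week 4. Among glutathione and NRF2 targets Nqo1, a quinone reductase, was at 0.801, 1.23, 1.02 and 2.11 CPM at week 3 and 2.72, 2.96 and 2.38 CPM at week 4, and Ftl1, the ferritin light chain, of the iron list, was at 24.4, 23.4, 29.2 and 72.3 CPM at week 3 and 172, 155 and 93 CPM at week 4. Cell cycle genes were higher in 2 of 26 (7.69%, no more than the share of all genes), with a median of 0.49.

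The genes of the step were then read in libraries that did not enter it, by comparing weeks 5 and 6 with weeks 1 and 2. That comparison called 3972 genes (33.5%), 2206 higher (18.6%) and 1766 lower (14.9%) in the later weeks, or 3147 and 389 with library size alone as the scale. It shares no library with the step, but both come from 1 model with the same gene filter, scaling and estimate of dispersion. Of the 533 genes that were higher at week 4 with an unadjusted p under 0.05 and no overlap, 239 were called higher in the later weeks (44.8%) and 4 lower, with a median of 0.43. Of the 568 that were lower, 302 were called lower (53.2%) and 1 higher, with a median of -0.37. Over all genes the median was -0.05. With the marker score as a term, 0 genes were called in that comparison and 999 had an unadjusted p under 0.05; the score averaged 3.88 ± 0.505 and 4.18 ± 0.609 at weeks 1 and 2 and 5.64 ± 0.150 and 5.42 ± 0.170 at weeks 5 and 6 (SD, n = 4, 3, 3 and 3), without overlap, so the weeks and the score cannot be told apart there.

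Male-biased genes were lower in that comparison as well, in 22 of 29, and higher in 0, with a median of -0.81. Of all genes, 14.9% were called lower and 18.6% higher there, and 0 were called with the marker score as a term. Serpina1e differed by -1.64 ± 0.19 (adjusted p 6.65e-06), Cyp7b1 by -1.53 ± 0.23 (adjusted p 5.94e-05) and Mup11 by -2.41 ± 0.35 (adjusted p 5.20e-05). Complement and coagulation factors were lower in 28 of 32 and higher in 1. All 19 endothelial and all 17 stellate markers were higher, with medians of 1.67 and 1.63. Cd36 differed by 1.96 ± 0.17 (adjusted p 1.43e-07).

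Of the 24 genes of fatty acid oxidation, 2 were called higher and 8 lower in the later weeks, where 18.6% and 14.9% of all genes were (median -0.14). Cyp4a14 was among the higher at 1.75 ± 0.59 (adjusted p 0.0273), while Acadm differed by -0.02 ± 0.10 (adjusted p 0.922) and Ehhadh by -0.02 ± 0.22 (adjusted p 0.949). Respiratory chain subunits, 7 of which were higher at week 4, were lower in 16 of 37 and higher in 0. Periportal genes held 2 higher and 5 lower of 25, and Pck1 differed by -0.04 ± 0.20. Whether a list differed between both comparisons, or from another list, was not tested.

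**Figure D5:**
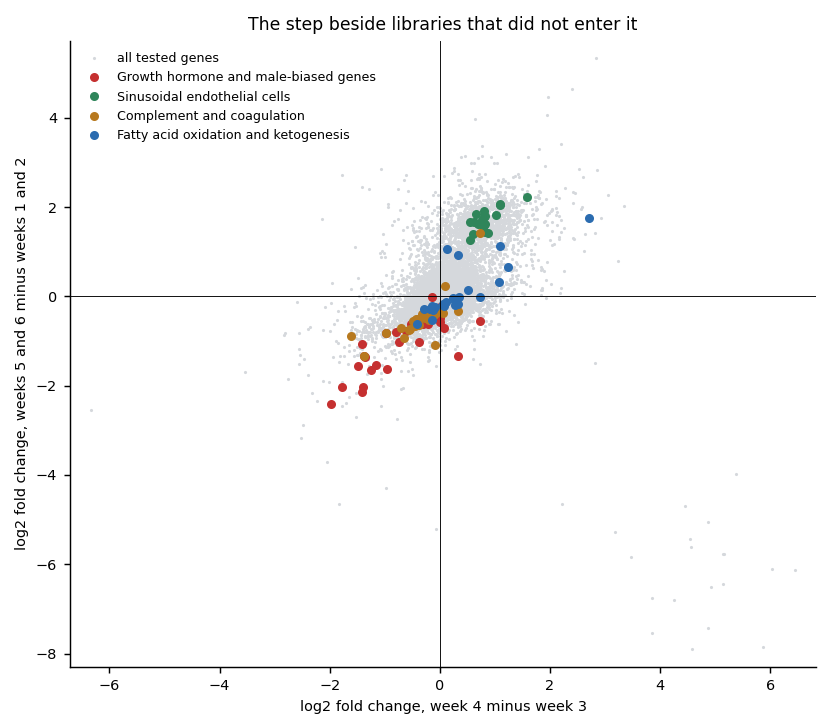
Each tested gene's log2 difference between week 4 and week 3 (horizontal) and between weeks 5 and 6 and weeks 1 and 2 (vertical), with 4 lists in colour. Male-biased genes and complement factors lie mostly at lower left and endothelial markers at upper right. Grey points are all tested genes, with the pancreatic acinar transcripts among them.

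Over all 7 groups the genes of the step took different shapes, a description made after their values were seen and fixed in part by how they were picked. For 283 of the 533 higher genes (53.1%) the means of weeks 4, 5 and 6 all lay above those of normal diet and weeks 1, 2 and 3, as they did for 18.7% of all genes. For 276 of them (51.8%) week 3 had the lowest mean of all groups (11.6% of all genes). Pfn1, an actin-binding protein, was of the latter kind, at 5.93, 8.61, 10 and 14.2 CPM at week 3 and 29.3, 27.1 and 28 CPM at week 4, with 20.1 ± 4.57 CPM on normal diet (SD, n = 5). For 441 of the 568 lower genes (77.6%) weeks 4, 5 and 6 all lay below the earlier groups, against 19% of all genes, and for 346 (60.9%) week 3 had the highest mean, against 13.7%.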

How the data were processed

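Per the labels' protocols, the kit for all 25 libraries was QuantSeq 3' FWD. STAR 2.7.1a, cutadapt, FastQC and build GRCm39 are listed, per the submitters' processing notes. Counter, strand setting and annotation were not given in the sources used here. Deposited by the authors was a table of raw counts with a column for each library, checked on the values to be whole numbers with differing totals. Of 37085 symbols, 20520 had a count and 11869 passed edgeR's filterByExpr. The main test was edgeR 4.0.16 (R 4.3.3): TMM factors, 1 model of 7 groups (18 residual degrees of freedom), robust quasi-likelihood F-tests, Benjamini-Hochberg adjusted p under 0.05. The standard error is the log2 fold change over the square root of F. CPM use TMM-scaled totals, and log2 CPM a prior count of 2.

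Members and the 49 gene lists (959 tested genes) were chosen with earlier results of these data known. Named genes were 12 per direction if called and without overlap, else the 6 with the smallest unadjusted p. Either way they had 10 CPM or more, and Gm and Rik symbols were passed over. Up to 4 members per list by p, and the 2 most abundant markers, were added. Mup genes, Selenbp2, Ghr, Stat5b, Socs2, Igf1, 1810019D21Rik, Prss2, Cox5a, C9 and C2 were named after their values were seen. Where fewer genes of a list passed the filter, counts are of the tested ones. Alternatives were other scalings (DESeq2 1.42.0 size factors, library size), filters, DESeq2, limma 3.58.1 voom, smaller models, the replicate number as a block, the marker score, each library left out and, added after seeing the data, libraries thinned to 1 depth. Within a week, pairs of libraries disagreed beyond sampling noise (chi-squared over degrees of freedom 10.3 to 33.5), so none were copies. Scripts were tested on simulated data. Sequences are from RefSeq tables of GRCm38.p6, a different build from the counts, and positions are given only for those promoters.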

Additional observations from a re-analysis of the deposited data

Results flagged for a closer look

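Among the 4 libraries of week 3, 242 genes and list means were tested for 1 value far from the rest, and 14 (5.79%) had a gap above the 95% critical value, where chance gives about 1 in 20. In 6 of the 14, library 1 was the highest: Serpina1e stood at 15129.6 CPM against 7460 to 8525 in the others, Fgb at 11885 CPM against 6530 to 7432, Saa1 at 2151 CPM against 125 to 358, Pdia4 at 380.4 CPM against 175 to 204, Txnrd1 (thioredoxin reductase) at 131 CPM against 93.2 to 98.96 and Cdkn1a (the cell cycle inhibitor p21) at 132 CPM against 9.49 to 19.6. Library 4 was highest in the endothelial genes Fcgr2b (15.5 CPM against 7.29 to 8.65) and Dnase1l3 (118 CPM against 81.7 to 84.4), in the lysosomal gene Psap (241 CPM against 135 to 146) and in Ftl1 (72.3 CPM against 23.4 to 29.2). In library 3, Acadm was lowest at 189 CPM against 211 to 215, and Eda2r was highest at 0.169 CPM against 0 in the others. Library 2 had the highest mean of the monocyte list, 3.501 log2 CPM against 2.69 to 2.77, and the lowest of the integrated stress response, 2.84 against 3.07 to 3.09. Groups of 3 libraries, week 4 included, were not tested in this way. No cause was tested.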

How the results depend on the processing

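For week 4 against week 3, 0 genes were called with DESeq2 size factors in edgeR, library size alone, no filter, a filter of 5 CPM in 3 libraries, voom, the marker score as a term (1131 at an unadjusted p under 0.05) and libraries thinned to 1 depth. DESeq2 called 99 and a model of only both weeks 4. Leaving out 1 library gave 0 to 80. The 12 genes described first kept their direction in every setting run. For week 3 against week 2, every setting gave 0, and leaving out 1 library gave 0 to 0. Week 5 against week 4 gave 14 with library size alone, 110 with DESeq2, 387 with voom, 81 with only those groups, and 0 to 2 leaving out 1 library. Against normal diet, week 3 gave 217 with DESeq2, 43 with only those groups and 61 to 132 leaving out 1 library; week 4 gave 246 with only those groups, 51 with the marker score and 156 to 1322 leaving out 1 library. Weeks 5 and 6 against weeks 1 and 2 gave 0 with the marker score and 3011 to 4098 leaving out 1 library. The cause of these shifts was not tested.

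No label says that the replicate numbers pair the samples. Same-numbered libraries of both weeks correlated in their deviations at -0.198, -0.0125 and 0.0128, and differently numbered ones at -0.196 to 0.189. So few libraries cannot settle whether the numbers share a batch. With the number as a replicate block, 0 genes were called for week 4 against week 3 (2267 at an unadjusted p under 0.05) and 335 for week 4 against normal diet. Of the named genes, those whose difference changed sign were markers of other cell types. With the marker score the log2 differences were -0.25 (C1qc), -0.24 (Adgre1), -0.58 (Cd5l), -0.042 (Cd14), -0.37 (Cd68), -0.27 (Lyz2), -0.77 (Ctss), -0.60 (Ptprc), -0.31 (S100a9), -0.0104 (Hba-a2) and -0.0188 (Hbb-bs). S100a8 was 0.22 with voom, 0.19 with the replicate block and 0.14 and 0.71 without library 2 of week 4 or of week 3 (-0.42 to 0.71 over all left-out libraries). Ctss was -0.06 and -0.18 without library 3 of week 3 or library 1 of week 4 (-0.18 to 0.29), and S100a9 -0.03 and -0.36 without library 4 of week 3 or library 1 of week 4 (-0.36 to 0.50). Of all named genes' values, 45 passed the threshold only under an alternative and 3150 kept direction and call; of list medians 801 moved by less than their spread and 31 by more. Library size alone moved the median of all genes from 0.01 to 0.08, and the medians of the interferon, lipoprotein, bile acid, glutathione and ribosomal lists changed sign with it. At this depth, genes of a few CPM rest on few counts.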

Other observations

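Several genes that were higher at week 4 had their lowest group mean at week 3 and a normal-diet mean between those of both weeks. Ftl1, the ferritin light chain, was at 95.3 ± 20.1 CPM (SD, n = 5) under normal diet, 37.3 ± 23.5 (SD, n = 4) at week 3 and 140.0 ± 41.6 (SD, n = 3) at week 4. The mitochondrially encoded mt-Nd3 was at 35.4 ± 13.8, 17.4 ± 7.92 and 62.4 ± 15.7 CPM in the same groups, and H2-T23, a nonclassical class I gene, at 11.6 ± 4.93, 5.06 ± 0.549 and 15.5 ± 2.96 CPM. The log2 differences of week 3 from week 2, none of which passed the test, were -0.73 ± 0.60, -0.70 ± 0.66 and -0.58 ± 0.46. These genes were picked after their values were seen.

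Pancreatic acinar transcripts were not confined to week 4. Of 23 such genes listed after the values were seen, 20 were tested, and all 20 had counts in libraries 3 and 4 of week 1, library 3 of week 2 and libraries 1 and 2 of week 4. Their summed level was 335 and 251 CPM in those libraries of week 1, 404 CPM in that of week 2 and 38.5 and 210.0 CPM in those of week 4. In the other 20 libraries the sum was at most 37.5 CPM. That was library 2 of week 1, where 14 of the genes were at 0 counts. The sum alone therefore does not set library 1 of week 4 apart, though all 20 genes had counts there.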
